A study of Mus musculus with 12 samples.

Results

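A single elevation of intraocular pressure (IOP) in old mice was followed in the retina by RNA sequencing. The comparison is between 2 retinas of eyes held at 30 mmHg for 1 h (18mo IOP) and 2 retinas of contralateral eyes left untreated (18mo control), all from 18-month-old mice of genotype WT and collected at day 2. Genes whose FPKM averaged 0.5 or more across these 4 libraries were all taken, which gave 13583 of the 25124 genes listed. FPKM counts the tags of a transcript relative to its length and to the tags of the library. Other differences in scaling or in the coverage of transcript length remain between libraries, and they are given below. The level alone set which genes were taken: Slc27a6 at 0.4995 FPKM and Adgrf2 at 0.49975 were just outside, and Tom1 at 0.5 and Zfp853 at 0.5015 were just inside.

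The whole study holds 12 libraries of bulk retina, and the same treatment and day at 3 months of age (2 3mo IOP and 2 3mo control libraries) is used here for comparison. Pressure was raised by fluid led through a needle in the anterior chamber, and since the contralateral eye was left untreated, pressure and cannulation cannot be told apart. The labels do not say whether a treated and an untreated retina with the same number came from 1 animal, nor whether the libraries of a group came from different animals, and p-values measure the spread between these libraries only. In the 4 libraries of 18-month-old mice, size was between 43834166 and 59455050 tags, of which 66.7% to 70.1% lay in exons. The floor of the measurement was set at 3 reads, which on a length of 2000 bases amount to 0.0252 to 0.0342 FPKM in these libraries.

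The retina answers injury largely through its Muller glia, the radial cells that span the tissue, which take up transmitter and potassium and which switch to a reactive state with more intermediate filament protein and secreted factors. Signals of the interleukin-6 family act through the shared receptor chain gp130 and the factor STAT3 in this switch. Microglia, the resident macrophages, supply complement C1q, antigen presentation and phagocytosis. Retinal ganglion cells, whose axons form the optic nerve, are the neurons lost in glaucoma.

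The label of the tissue was checked on the rod transducin gene Gnat1, which was at 4868, 4277, 3061 and 4165 FPKM in control 1, control 2, IOP 1 and IOP 2, and this order of libraries is kept throughout. Xist was between 103 and 172 FPKM in all 4 libraries, and the 4 Y-linked genes looked up were listed at 0. The libraries stood apart in inner retinal neurons in a way that crossed the treatment. Calb2, a calcium-binding protein of amacrine and ganglion cells, was at 8.64, 33.5, 32.8 and 3.47 FPKM. Gad1, which makes the transmitter GABA in amacrine cells, was at 9.7, 26, 27.3 and 2.23. Control 1 and IOP 2 were low and control 2 and IOP 1 were high for both genes. The glial gene Gfap followed the labels instead, at 4.87, 4.39, 31.4 and 87.5 FPKM, and the called genes below, chosen by that separation, are no independent check of them. Whether libraries were exchanged was not tested, and an exchange would change what every comparison here means. Over 18 markers of amacrine and horizontal cells the summed level was 92.6 and 176 FPKM in the control and 202 and 62.4 in the IOP libraries. The 19 ganglion cell markers summed to 81.0 and 150 FPKM in the control and to 175 and 79.2 in the IOP libraries. In bulk retina fewer cells of a type and less RNA per cell cannot be told apart. IOP 1 and IOP 2 differed also in lens and microglial genes, given with the results below. What part these differences have in the results was not tested, and list values are therefore given for each IOP library too.

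**Figure D1:**
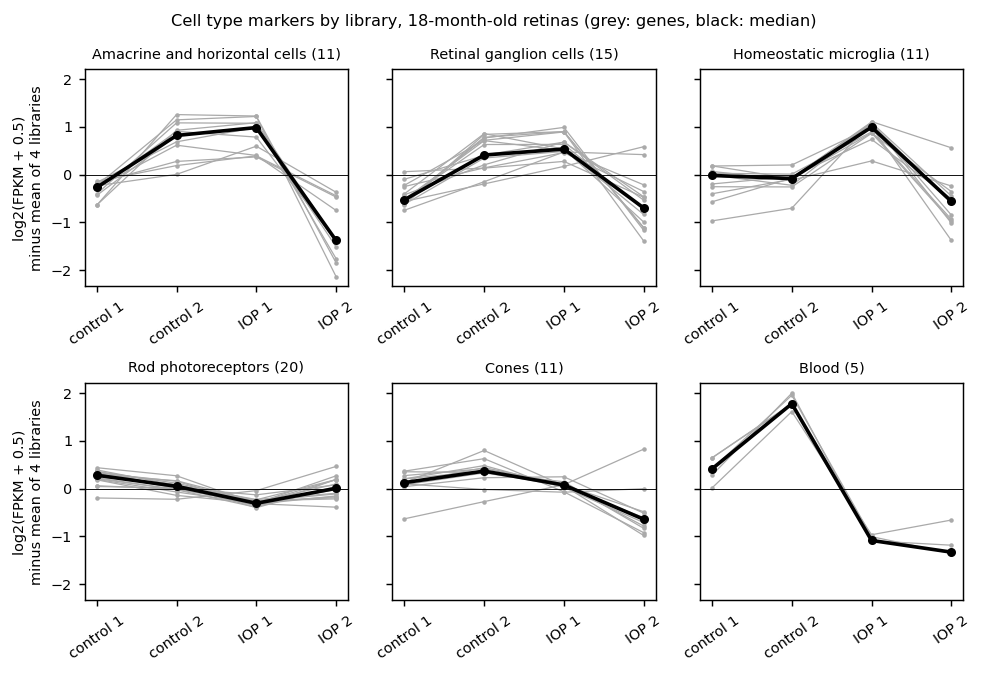
Marker genes of 6 cell types in the 4 retinas of 18-month-old mice, as log2(FPKM + 0.5) minus the gene's mean over the 4 libraries (grey, 1 line per gene; black, median; the lines only join the values of a gene). Amacrine and ganglion cell markers were low in control 1 and IOP 2, and the 5 blood genes were lower in both IOP libraries than in either control.

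The genes called higher in the treated retinas included some glial, acute-phase, complement and antigen presentation genes. Among the 13583 genes tested with limma on log2(FPKM + 0.5), with Benjamini-Hochberg adjustment and a required log2 change of 1 or more, 23 rose and 2 fell, which is 0.169% and 0.0147% of the genes. This fit shares its estimate of the spread with the 3mo libraries. With the libraries of 18mo animals alone, limma called 0 and 0 genes (1792 higher and 222 lower at an unadjusted p of at most 0.05), and with the replicate number as a block it also called 0 and 0 (915 and 79 unadjusted). The smallest adjusted p was 0.0418, shared by 24 of the 25 genes, so that these calls passed the threshold of 0.05 together and narrowly. At an unadjusted p of at most 0.05 there were 1256 genes higher and 112 lower, the called genes included. In 5035 genes both IOP libraries lay above both controls, which is 37.1% of the genes, and in 1345 genes, or 9.9%, both lay below. Counts of genes without overlap in the lists below are to be read against these 2 shares. The median log2 fold change of all genes was 0.09. With median-of-ratios size factors it was -0.01, the genes without overlap were split into 3046 higher and 2906 lower, and no gene was called (limma, 894 higher and 237 lower at an unadjusted p of at most 0.05). Values near 0 therefore carry no direction, and lists whose median changed sign under another scaling or without 1 library are named as such.

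**Figure D2:**
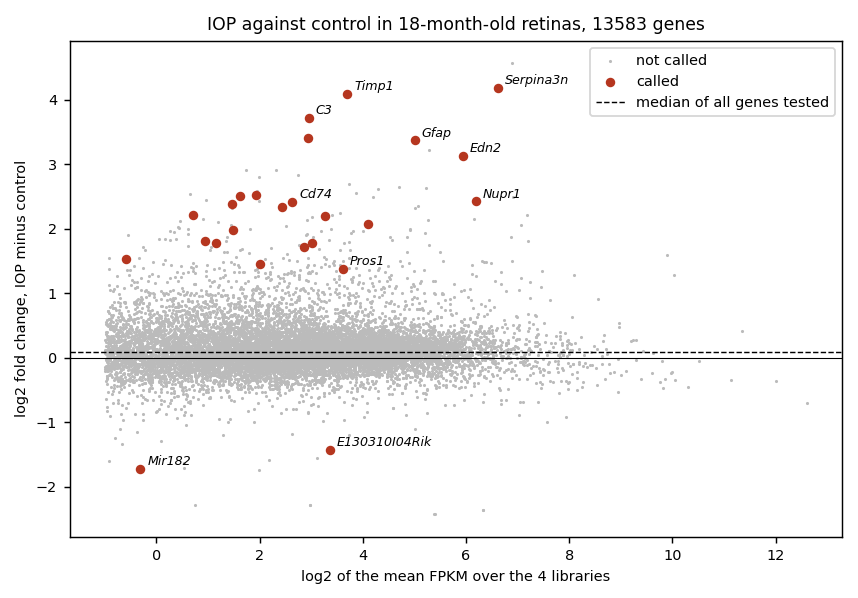
Log2 fold change of IOP against control (vertical axis) by log2 of the mean FPKM over the 4 libraries (horizontal axis) for the 13583 genes, with the 25 called genes in red. The 23 genes that rose lie between 1.38 and 4.18, and the dashed line marks the median of all genes at 0.09.

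A single library weighed heavily in the calls. Of the 23 genes that rose, 19 were higher in IOP 2 than in IOP 1, as were 334 of the 398 genes with a log2 fold change of at least 1. Without IOP 1, 169 genes rose and 10 fell, and without IOP 2, 6 rose and 1 fell. No gene was called without control 1 (limma, 738 genes higher and 46 lower at an unadjusted p of at most 0.05) or without control 2 (716 higher and 79 lower). The lone library of a group was assumed to vary like the other groups in these fits. The log2 fold changes kept their sign in every alternative for all 25 genes. In genes without overlap this was bound to hold when a library was left out. The fits that changed only the spread or the filter leave the estimate as it was, so the sign is no support for the calls.

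Glial and acute-phase genes were among the largest rises. Serpina3n, a secreted protease inhibitor of reactive astroglia, was at 7.73 and 8.71 FPKM in the control and 85.6 and 288 in the IOP retinas, or 4.18 as a log2 fold change (standard error, SE, 0.56, adjusted p = 0.0418 by limma). Timp1, an inhibitor of matrix metalloproteases, went from 0.727 and 0.778 to 10.9 and 39.6 FPKM, or 4.09 as a log2 fold change (SE 0.48, adjusted p = 0.0418 by limma). Gfap, the intermediate filament of astrocytes and reactive Muller glia, was at 4.87 and 4.39 and then 31.4 and 87.5 FPKM (log2 fold change 3.37). In these 3 genes IOP 2 was more than 2 times as high as IOP 1, and both lay far above the controls. Steap4, a metalloreductase of the acute-phase response, was at 0.845, 0.634, 7.15 and 21.9 FPKM. Edn2, a vasoconstrictor peptide made by stressed photoreceptors, was at 10.1 and 11.7 FPKM in the control and 59.8 and 163 in the IOP retinas. Cd44, the hyaluronan receptor of Muller glia and leukocytes, had 3.23, 2.96, 12.8 and 19.7 FPKM and the smallest unadjusted p of the called genes, 1.15e-05. Osmr, the receptor chain for oncostatin M, was at 3.64, 3.04, 10.8 and 14.9. Nupr1, a small stress-induced chromatin protein, was at 22.9 and 21.5 in the control and 98 and 149.8 in the IOP retinas, and it was the gene still called after quantile normalization.

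Genes of complement and of antigen presentation were the second group. C3, the central complement component, had 0.582 and 0.465 FPKM in the control and 7.4 and 22.4 in the IOP retinas, or 3.72 as a log2 fold change (SE 0.44). C4b, of the classical pathway, was at 5.22, 7.34, 23.6 and 32.3 FPKM. Both components were highest in IOP 2. The 4 called genes of major histocompatibility complex (MHC) class II behaved otherwise, with like levels in both IOP retinas. Cd74, the invariant chain that loads class II molecules, was at 1.94 and 1.3 FPKM in the control and 11.9 and 9.55 in the IOP retinas (log2 fold change 2.42, SE 0.32). The alpha chain gene H2-Aa was at 0.692, 0.4, 5.76 and 4.2 FPKM. The beta chain gene H2-Ab1 was at 0.424, 0.739, 5.96 and 5.17, and its limma adjusted p was 0.0485. H2-Eb1, another beta chain, was at 0.412, 0.129, 2.74 and 3.27. All 4 were above both controls by a log2 difference of at least 2 in the group means. Lilrb4a, an inhibitory receptor of myeloid cells, was at 0.981, 0.689, 5.26 and 4.29 FPKM, and it overlaps Gm49339 on its own strand. Ccl2, a chemokine that attracts monocytes, was at 0.911, 2.08, 7.59 and 10.9.

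The remaining called genes were of neuronal, cytoskeletal or mixed kind. Calca, which encodes calcitonin and the neuropeptide CGRP, was at 0.498, 1.01, 4.83 and 8.86 FPKM (log2 fold change 2.53). Chl1, a cell adhesion molecule of growing axons, was at 0.582, 0.531, 2.44 and 4.12. Tubb2b, a beta-tubulin of developing and regrowing neurons, was at 1.98, 1.87, 6.05 and 6.21, and the libraries of each group lay close together. Tnnt2, a cardiac troponin gene, was at 3.19, 2.93, 9.17 and 13.8, and Dlx3, a homeobox factor, at 0.035, 0.164, 1.2 and 1.27. Pros1, the vitamin K-dependent protein S that also acts as a ligand of the receptors Tyro3, Axl and Mertk, had the smallest of the called rises, from 7.03 and 6.01 to 16.7 and 19 FPKM (log2 fold change 1.38, SE 0.18). Glipr2 was at 0.839, 0.616, 3.43 and 3.99 FPKM. In all 7 genes both IOP libraries lay above both controls. The control means of Dlx3, and of H2-Eb1 above, were under 0.5 FPKM, so that both genes passed the level filter only through the IOP libraries. Other annotated genes lie on the same strand within C3, Cd74 and Chl1, and Tubb2b, C4b and Lilrb4a have near-identical paralogs, so that reads could be shared.

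**Figure D3:**
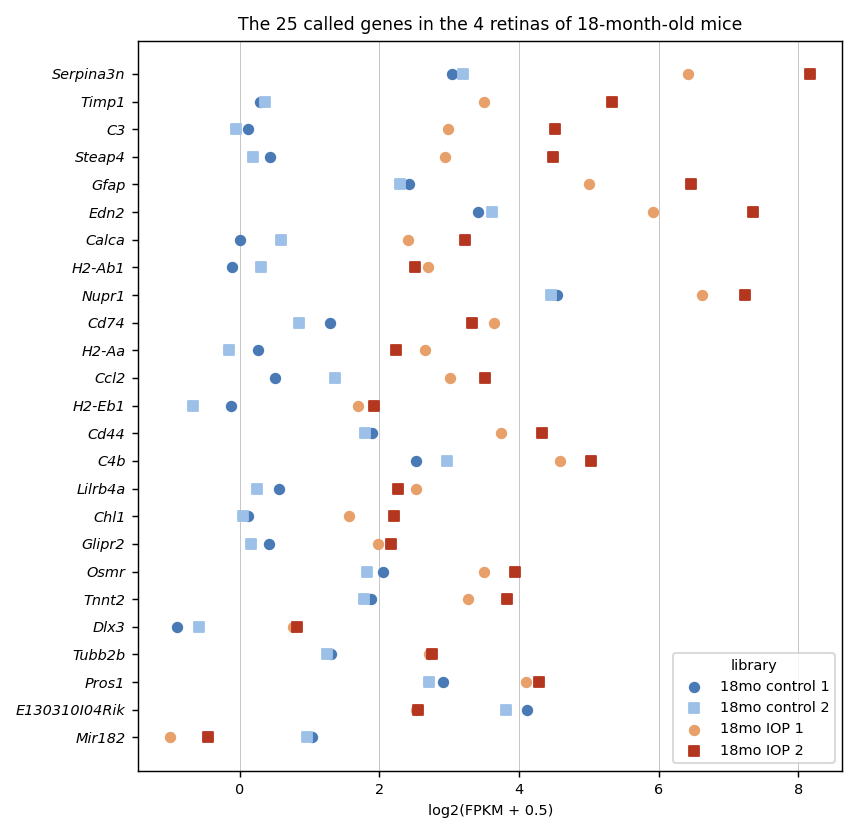
Log2(FPKM + 0.5) of the 25 called genes in each of the 4 libraries, ordered by log2 fold change. Control and IOP libraries do not overlap in any of them, and IOP 2 (red squares) is above IOP 1 in 19 of the 23 genes that rose.

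E130310I04Rik, a noncoding transcript on chromosome 16 (mm10, 34943175 to 34958994, minus strand), fell from 16.9 and 13.5 to 5.28 and 5.36 FPKM, or -1.42 as a log2 fold change (SE 0.18, adjusted p = 0.0418 by limma). It lies opposite to Mylk, which had 15.7, 19.9, 13.4 and 9.41 FPKM. A neighbour opposite to the same gene, 1700119H24Rik (chromosome 16, 34935855 to 34939329), had 14.2, 11.5, 6.14 and 2.56 FPKM and was not called (limma adjusted p = 0.157). All 3 transcripts were lower in both IOP libraries than in both controls. The second called fall, Mir182, is a microRNA gene of 74 bases that rests on 5 and 5 reads in the control and 0 and 1 in the IOP libraries, at least 2.1-fold lower against the floor of 3 reads. Such a short precursor is poorly sampled by poly(A) libraries.

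Among genes above 2 FPKM that were not called, the following were among the largest differences without overlap at an unadjusted p of at most 0.05. Lcn2, a siderophore-binding acute-phase protein, was at 7.24 and 4.78 FPKM in the control and 55.4 and 408 in the IOP retinas, and its log2 difference of 4.56, larger than that of any called gene, had a limma adjusted p of 0.0823. IOP 2 held more than 7 times the level of IOP 1. The protease inhibitor gene A2m was at 7.55, 4.83, 32.6 and 111 FPKM. Prph, an intermediate filament of injured and peripheral neurons, was at 0.156, 0.352, 2.4 and 10.4, and Bcl3, a nuclear partner of NF-kB, at 0.338, 0.679, 2.85 and 16. The neutrophil chemokine gene Cxcl1 was at 1.19, 0.702, 4.38 and 20.6. S100a6 was at 11.6, 7.78, 43.6 and 87.3. On the side of lower values, Slc29a4, a monoamine transporter, was at 6.7, 5.9, 2.3 and 0.975 FPKM, Csrp3, a muscle LIM protein also made by injured neurons, at 8.29, 5.77, 2.7 and 1.42, and the lipid phosphatase gene Plpp2 at 18.6, 14.5, 7.93 and 8.41. Their limma adjusted p-values were 0.107, 0.205 and 0.0896. F630040K05Rik and 1600014C23Rik, which lie next to each other in divergent orientation on chromosome 17, were at 16, 21.1, 9.52 and 6.26 and at 3.64, 3.74, 1.31 and 2.09 FPKM. Gm7616, opposite to the photoreceptor factor gene Nr2e3, was at 3.56, 3.65, 1.2 and 1.38, while Nr2e3 itself was at 292, 243, 206 and 291.

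The start regions of the called genes are shown because these genes were called together. RefSeq promoters (GRCm38.p6) were used for 15 of the 23 genes that rose. The 250 bases before the start were searched on both strands for the letters of 6 motifs. The remaining genes that rose, Cd74 among them, were left out of the search, so the shares describe these 15 genes only. The motif of STAT factors, TTCNNNGAA, was in 3 of the 15 promoters, against 7.02% of all 32851 promoters. NF-kB sites, searched by their usual degenerate form, were in 2 of 15 against 3.9%, the C/EBP motif TTGCNNAA was in 2 against 9.56%, and the core of the interferon response element, GAAANNGAA, was in 1 against 7.13%. A CCAAT box was in 4 of 15 against 33.85%, and the AP-1 motif TGANTCA was in none of the 15 windows against 6.75%. The 3 promoters with the STAT letters, that of C3 with the C/EBP letters and those of 2 class II genes are printed, in lower case with the motif letters in capitals. Capitals mark the STAT letters at position -116, the C/EBP letters at -87 and NF-kB sites at -250 and -226 in Steap4, the STAT letters at -128 in Nupr1 and at -92 in Pros1, and the C/EBP letters at -45 in C3, counted from the start to the first base of the match. In H2-Aa they mark overlapping NF-kB sites at -131 and -130 and an inverted CCAAT box at -48, and in H2-Eb1 an inverted box at -59 and a forward one at -35. An inverted CCAAT box is the Y box of class II promoters. A match of letters is no proof of binding.
Steap4 (chr5:7960222-7960471, plus strand): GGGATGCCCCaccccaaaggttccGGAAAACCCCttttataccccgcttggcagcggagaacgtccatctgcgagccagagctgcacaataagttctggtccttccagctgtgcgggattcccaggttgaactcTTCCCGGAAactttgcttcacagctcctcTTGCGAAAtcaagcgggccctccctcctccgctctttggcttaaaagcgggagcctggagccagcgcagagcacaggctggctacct
Nupr1 (chr7:126625471-126625720, minus strand): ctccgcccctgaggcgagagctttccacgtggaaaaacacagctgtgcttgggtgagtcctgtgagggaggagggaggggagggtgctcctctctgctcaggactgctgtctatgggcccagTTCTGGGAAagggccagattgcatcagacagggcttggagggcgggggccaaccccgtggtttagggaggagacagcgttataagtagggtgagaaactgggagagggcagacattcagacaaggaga
Pros1 (chr16:62854057-62854306, plus strand): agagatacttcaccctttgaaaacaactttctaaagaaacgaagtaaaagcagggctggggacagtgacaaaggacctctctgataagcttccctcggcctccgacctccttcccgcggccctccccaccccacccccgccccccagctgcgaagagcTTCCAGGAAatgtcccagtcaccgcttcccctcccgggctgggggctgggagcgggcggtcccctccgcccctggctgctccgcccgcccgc
C3 (chr17:57228137-57228386, minus strand): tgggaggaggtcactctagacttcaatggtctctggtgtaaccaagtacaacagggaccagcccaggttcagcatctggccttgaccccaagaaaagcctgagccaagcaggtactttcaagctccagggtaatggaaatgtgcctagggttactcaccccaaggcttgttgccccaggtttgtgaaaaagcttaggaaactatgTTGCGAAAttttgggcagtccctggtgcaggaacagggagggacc
H2-Aa (chr17:34287824-34288073, minus strand): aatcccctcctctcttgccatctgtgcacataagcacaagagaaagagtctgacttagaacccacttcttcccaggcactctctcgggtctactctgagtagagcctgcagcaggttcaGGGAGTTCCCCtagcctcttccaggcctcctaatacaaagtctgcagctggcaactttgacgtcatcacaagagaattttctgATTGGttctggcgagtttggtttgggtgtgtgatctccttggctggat
H2-Eb1 (chr17:34305617-34305866, plus strand): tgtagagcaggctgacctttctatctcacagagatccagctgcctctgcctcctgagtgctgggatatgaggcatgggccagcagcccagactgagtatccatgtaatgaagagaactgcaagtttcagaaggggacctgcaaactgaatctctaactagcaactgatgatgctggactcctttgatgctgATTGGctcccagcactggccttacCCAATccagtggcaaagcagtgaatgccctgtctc

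Genes were then described by pathway. A list counts the members that passed the level filter, of those listed where some did not. Some members passed only through the IOP libraries, where they were high, so that these counts and medians describe the tested members and are no support for the whole list. The lists were written with a figure of the study on these data in view and hold genes shown in it, so that a share above the background is not independent evidence of a direction. Each median log2 difference is followed by the medians in IOP 1 and in IOP 2 alone, each against the mean of the controls. Of 16 reactive gliosis genes, 6 rose and 15 were higher in both IOP libraries than in both controls, with a median log2 difference of 1.98 (1.55 in IOP 1 and 2.26 in IOP 2). Beside the called members, Fgf2, a growth factor of stressed photoreceptors and glia, was at 4.03, 4.46, 13.3 and 51.5 FPKM. Vim, the filament of all Muller glia, was at 60.5, 59.6, 129.5 and 226, and the glial factor gene Sox9 was at 8.58, 4.44, 13.4 and 26.7. Tnc, a matrix protein, overlapped between the groups at 0.944, 1.92, 1.63 and 0.553. The 6 acute-phase genes above the level filter, of 12 listed, were without overlap, and 2 rose. Their median was 3.31 (2.48 and 4.14), against 1.30 over the list with no filter on low values. The copper ferroxidase gene Cp was at 52.4, 44, 129.7 and 243 FPKM and Saa3 at 0.261, 0, 1.04 and 4.17. The other 6 were under the filter. Of 13 genes of normal Muller glia function, 11 had a positive log2 difference. Without overlap, 9 were higher and 1 lower (median 0.45, 0.58 and 0.25). Apoe, the lipid carrier, was at 671, 560.1, 1460.3 and 1513 FPKM and the potassium channel gene Kcnj10 at 16.3, 15.3, 26 and 25.7. The enzyme gene Glul, at 867, 667, 901 and 714, and the retinoid carrier gene Rlbp1, at 160.4, 118, 153 and 125, overlapped between the groups. The taurine transporter gene Slc6a6 was lower without overlap, at 340.1, 317, 281 and 194. The 4 tested of 6 genes of astrocytes and the optic nerve head were without overlap (median 0.92, 0.83 and 1.09), 1 of them called, Gfap, and the others were Aldh1l1, S100b and Aqp4.

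Of 13 genes of gp130 cytokines and STAT3 tested of 15, 1 rose (Osmr) and 11 were without overlap, with a median of 1.19 (0.93 and 1.66). The ligand gene Lif was at 0.513, 0.334, 1.77 and 12.8 FPKM, highest in IOP 2, and Cntf at 4.92, 3.06, 11.6 and 16.1. The factor gene Stat3 was at 12.7, 13.8, 29.1 and 50.1, and its feedback inhibitor gene Socs3 at 20.6, 9.33, 30.5 and 47.1. The shared receptor chain gene Il6st was at 15.5, 16.2, 24.8 and 33.9, while Jak1 was at 24, 22.6, 23.2 and 23.3. Immediate early genes are a class transcribed within minutes of a stimulus. Of 18, none was called, 16 were without overlap and 15 had an unadjusted p of at most 0.05 (median 1.42, with 0.88 in IOP 1 and 1.90 in IOP 2). Fosl1 was at 0.671, 0.252, 2.9 and 12 FPKM, Maff at 3.83, 2.15, 8.08 and 28.3, Myc at 0.305, 0.429, 1.33 and 7.06 and Klf6 at 9.5, 8.47, 21.9 and 52.7. Fos was already abundant in the controls, at 207 and 104, against 231 and 547 in the IOP retinas, and Egr1 overlapped at 209.8, 159, 144 and 268. Among 12 NF-kB genes of 13, 10 were higher and 1 lower without overlap (median 0.54, 0.54 and 0.67). The inhibitor genes Nfkbia and Nfkbiz were at 18, 16.4, 32 and 61.4 and at 10.8, 7.13, 17 and 38 FPKM, the subunit gene Rela at 7.79, 7.88, 8.64 and 12.3, and Tnfaip3, which shuts the pathway off, at 77.4, 58.8, 37.5 and 43.9, lower in both IOP libraries. Of 5 C/EBP factors 4 were without overlap (median 0.64, 0.99 and 0.30), led by Cebpd at 19.3, 8.83, 41.5 and 84.

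Most chemokine and cytokine genes were higher, many of them at low levels. Of 13 chemokine genes tested of 17, 1 rose (Ccl2) and 10 were without overlap (median 1.03, with 1.44 in IOP 1 and 0.92 in IOP 2, but 1.80 with a pseudocount of 0.1 and 1.83 with voom). Cxcl10, induced by interferon, was at 4.96, 2.5, 14.7 and 36.4 FPKM, and Cxcl2 and Ccl7 were at 1.89, 0.774, 4.87 and 14.6 and at 0.517, 0.538, 3.07 and 6.93. The microglial chemokine genes Ccl3 and Ccl12 were high in IOP 1 alone, at 17.4, 15.7, 40.8 and 12.3 and at 3.05, 2.7, 6.99 and 2.34. Of 12 genes tested of 17 in the interleukin-1 and TNF families 10 were without overlap (median 0.78, 0.98 and 0.70). The TWEAK receptor gene Tnfrsf12a was at 4.51, 3.37, 9.92 and 22.9 FPKM, Fas at 1.13, 0.681, 2.68 and 5.42 and Tnfrsf1a at 4.59, 4.29, 11.1 and 18. Among the ligand genes Tnf was at 2.91, 2.7, 6.05 and 4.54, without overlap, and Il1a at 7.6, 5.64, 14 and 5.34, with overlap. Inflammasome genes were 3 of 5 tested of 7 without overlap (median 0.34, 0.90 and 0.16, and 0.54 with a pseudocount of 0.1 or 0.52 without control 1), the protease gene Casp1 at 0.152, 0.228, 1.05 and 0.829 among them, while Nlrp3 overlapped at 1.24, 1.42, 2.9 and 0.867. Toll-like receptors and adaptors gave 7 of 9 tested of 14 (median 0.75, 0.64 and 0.66, and 0.46 with no filter), with Tlr2 at 2.14, 2.99, 8.43 and 5.11.

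Most interferon target genes were higher in both IOP libraries, yet none on the MHC class I, GTPase or antiviral lists was called. All 15 genes of MHC class I and antigen processing were without overlap and had an unadjusted p of at most 0.05, with a median of 1.19 (0.85 and 1.41). H2-K1 was at 37.6, 41.6, 85.5 and 113 FPKM, H2-D1 at 35.5, 48.2, 91.1 and 150.2 and B2m, the shared light chain, at 96.8, 123, 286 and 193. The peptide transporter gene Tap1 was at 1.62, 1.88, 2.58 and 8.87. Reads of the H2 genes may be split among near-identical copies. The 9 interferon-induced GTPase genes above the filter, of 14, were without overlap (median 0.91, 0.76 and 1.04), led by Gbp2 at 4.42, 3.9, 11.9 and 10.6. Of 21 antiviral genes tested of 24, 19 were without overlap (median 0.99, 0.87 and 0.99). Bst2, which tethers virions to the cell, was at 4.82, 6.25, 15.5 and 26.7 FPKM and Ifitm3 at 9.39, 14.9, 29.5 and 35.8. Ifit2 and Oas1a overlapped. Of 12 STAT and IRF factors tested of 13, 10 were without overlap (median 0.58, 0.56 and 0.48), with Irf1 at 3.07, 3.17, 6.83 and 10.5 and Irf9 at 6.13, 6.57, 11.2 and 22.9, but Irf3 at 28.1, 26.6, 24.6 and 31. On the MHC class II list 4 of the 6 genes tested, of 7, were called, all 6 without overlap and a median of 2.30 (2.33 and 2.22). The 2 other members, which exchange peptides on class II molecules, were at 0.358, 0.352, 1.07 and 0.883 FPKM (H2-DMb1) and 1.06, 1.36, 2.68 and 1.57 (H2-DMa).

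Among 11 genes of resting microglia above the filter, of 12, 1 was without overlap, Fcrls at 0.599, 0.82, 4.14 and 2.67 FPKM, and the median was 1.12 in IOP 1 but -0.38 in IOP 2. The growth factor receptor gene Csf1r was at 6.63, 8.29, 19.1 and 5.88, the purine receptor gene P2ry12 at 3, 2.52, 6.96 and 1.46 and Tmem119 at 1.99, 1.57, 3.52 and 0.619. The summed level of the 12 markers listed was 51.3 and 54.7 FPKM in the control and 124 and 43.4 in the IOP libraries, so that IOP 1 was above and IOP 2 below both controls. Of 17 genes of disease-associated microglia tested of 18, 13 were higher without overlap, with medians of 1.12 in IOP 1, like that of resting microglia, and 1.08 in IOP 2. The difference between these lists was not tested. The secreted phosphoprotein gene Spp1 was at 4.35, 1.41, 9.69 and 37.6 FPKM, Cd68 at 4.86, 5.07, 12.2 and 11.4, Clec7a at 1.22, 1.45, 5.92 and 3.37 and Gpnmb at 4.28, 0.903, 6.3 and 7.12. Trem2, in contrast, overlapped at 4.44, 4.28, 10.1 and 4.24. Apoe is on this list and on that of Muller glia, since both cell types make it. Of 8 complement components tested of 13, 2 rose (C3 and C4b) and 7 were without overlap (median 1.13, 1.58 and 0.90). C1qa was at 22.9, 25.6, 73.1 and 42.7 FPKM, with C1qb and C1qc in the same order of libraries, IOP 1 above IOP 2. The 10 complement regulators and receptors tested, of 11, were without overlap (median 0.90, 1.05 and 0.47). The C1 inhibitor gene Serping1 was at 9.77, 9.71, 33.7 and 80.2 FPKM and Clu, an abundant secreted chaperone, at 456, 477, 1149 and 1718. All 6 Fc receptor genes were without overlap (median 0.82, 1.08 and 0.66), and 15 of 17 lysosomal genes were (median 0.66, 0.90 and 0.51), with Ctss at 36.4, 40.1, 122 and 51.8 and Cd63 at 20.7, 19.7, 48 and 56.9.

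Only 5 of 17 leukocyte markers passed the level filter. These 5 were without overlap, S100a8 and S100a9 having passed only through the IOP libraries. Their median was 1.42 (1.35 and 2.02), also with S100a8 at its bound, but 0.11 over the list with no filter, 2.45 with a pseudocount of 0.1 and 2.65 with voom. Lyz2, of macrophages and neutrophils, was at 10.7, 4.13, 43 and 45.9 FPKM. S100a8, a neutrophil protein, had 0 and 0 reads in the control and 26 and 35 in the IOP libraries, at least 8.01-fold higher, and S100a9 was at 0.088, 0.166, 0.565 and 2.15. Ptprc, common to leukocytes, was at 0.461, 0.664, 1.62 and 0.856. The whole list summed to 15.2 and 9.85 FPKM in the control and to 57.8 and 57.0 in the IOP libraries. Ly6g was at 0 in all 4 libraries, and the T and B cell genes Cd3e and Ms4a1 were at most 0.038 and 0.025. Blood genes went the other way. The 5 tested were lower in both IOP libraries (median -2.37, -2.23 and -2.54), and Hbb-bs was at 69.7, 204, 25.8 and 20.1 FPKM. Of 8 listed blood genes 7 were in the table, which summed to 166 and 426 FPKM in the control and 54.3 and 44.3 in the IOP libraries. None was called. Of 7 adhesion molecules tested of 11, 1 rose (Cd44) and 5 were without overlap (median 1.19, 1.16 and 1.23, and 0.40 with no filter). Vcam1 was at 6, 5.22, 13.7 and 18.6 FPKM, Icam1 at 2.13, 2.01, 5.52 and 5.93 and the endothelial gene Pecam1 at 5.04, 5.93, 5.44 and 4.75.

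**Figure D4:**
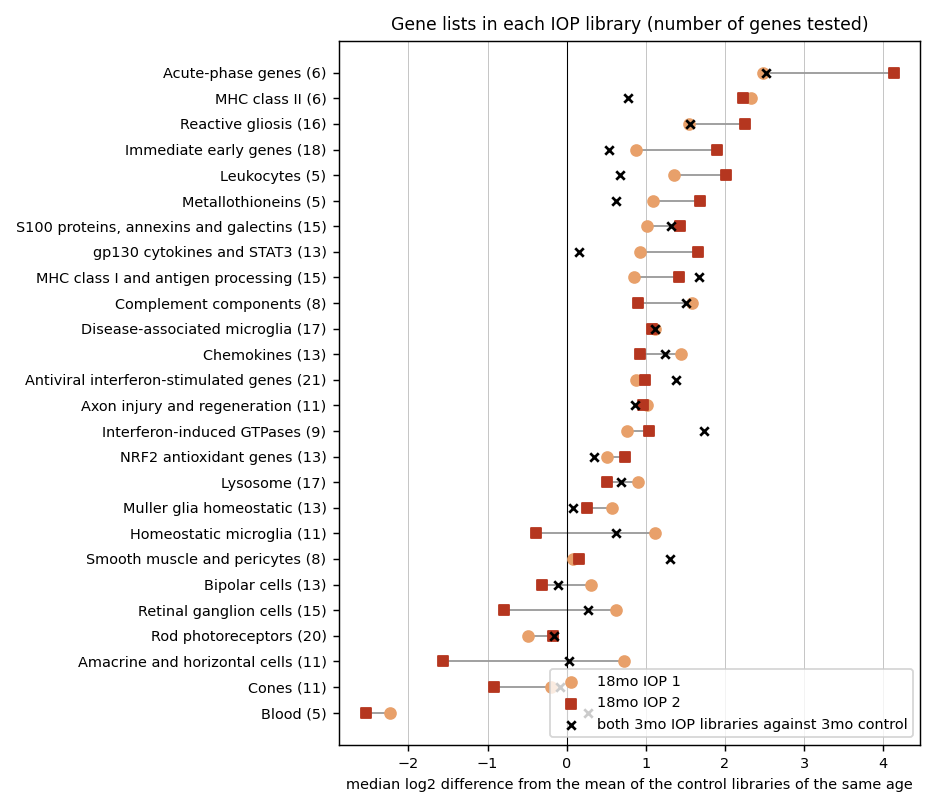
Median log2 difference of gene lists in IOP 1 and IOP 2, each against the mean of the 2 control libraries of 18-month-old mice, and, as crosses, in both IOP libraries of 3-month-old mice against their controls; the number of genes tested is in parentheses. Acute-phase genes were at 2.48 in IOP 1 and 4.14 in IOP 2, whereas markers of amacrine cells lay on opposite sides of 0.

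Stress and repair lists were mostly higher as well. All 13 NRF2 antioxidant genes were without overlap (median 0.70, 0.51 and 0.73), and the heme-degrading enzyme gene Hmox1 was at 3.42, 2.82, 6.35 and 29.4 FPKM. All 5 metallothionein and zinc transport genes were without overlap (median 1.39, 1.09 and 1.68), with Mt2 at 55.6, 41.7, 159.7 and 319.9 and Mt1 at 72.1, 56.4, 178 and 281. Of 11 iron genes tested of 12, 7 were higher and 1 lower without overlap (median 0.72, 0.69 and 0.76, and 1.45 with a mean of at least 2 FPKM), the transferrin gene Trf at 29.7, 34.5, 110.4 and 303 and the transferrin receptor gene Tfrc at 30.7, 33.5, 24.6 and 19.4. Of 11 heat shock genes 9 were without overlap (median 0.58, 0.26 and 0.93), Bag3 at 2.63, 2.22, 5.45 and 11.7, while Hsp90aa1 was at 193, 183, 178 and 210.0. Among 17 p53 targets and CDK inhibitors of 18, 13 were without overlap (median 0.67, 0.47 and 0.78). Cdkn1a, which encodes the cell cycle inhibitor p21, was at 5.02, 4.48, 10.1 and 18.7 FPKM, Gadd45b at 12.2, 9.62, 27 and 71.9 and Mdm2 at 22, 19.5, 19.4 and 22.9. Of 11 integrated stress response genes tested of 13, 7 were without overlap (median 0.28, 0.36 and 0.44, and 0.16 after quantile normalization or 0.46 without control 2), Gdf15 at 0.298, 0.217, 1.23 and 2.07 and the endoplasmic reticulum chaperone gene Hspa5 at 91.4, 86.7, 143 and 285, but Atf4 at 162, 147, 150.4 and 206. Of 15 S100, annexin and galectin genes 14 were without overlap (median 1.27, 1.02 and 1.43), with S100a10 at 11, 9.38, 33.3 and 41.5. Of 10 genes of metalloproteases and their inhibitors tested of 15, 1 rose (Timp1) and 8 were without overlap (median 0.84, 0.76 and 0.88), with Adamts1 at 12.8, 9.29, 29.2 and 69.2 and Mmp9 at 1.62, 1.96, 1.95 and 0.841. YAP targets gave 8 of 9 tested of 10 (median 0.74, 0.61 and 1.19), with Ccn1 at 72.4, 26.5, 101 and 334. TGF-beta genes gave 9 of 13 tested of 14 (median 0.41, 0.52 and 0.30) and matrix genes 9 of 17 tested of 24 (median 0.34, 0.39 and 0.28, and 0.18 after quantile normalization). Endothelin genes gave 3 of 5 tested of 7, with Edn2 called (median 0.41, 0.36 and 0.42, and 0.25 after quantile normalization).

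Other lists showed less. Of 10 hypoxia genes tested of 11, 2 were without overlap (median 0.06, 0.12 and 0.02), and Vegfa was at 33, 47.1, 39.4 and 37.4 FPKM. The pair was Hif1a and Adm, a vasodilator peptide gene at 0.164, 0.154, 0.761 and 6.35. FGF ligands, receptors and Sprouty genes gave 6 of 12 tested of 15 (median 0.15, 0.45 and 0.26), proliferation genes 5 of 10 tested of 16 (median 0.09, 0.05 and 0.23) and neurotrophin and GDNF genes 1 of 9 tested of 14 (median 0.01, 0.44 and -0.15). Cholesterol genes gave 3 higher and 3 lower of 13 (median -0.12, 0.06 and -0.20) and clock genes 2 higher and 4 lower of 14 (median -0.05, 0.03 and -0.20). The endothelial list had 6 of 14 higher and 1 lower (median 0.18, 0.36 and -0.05), with Cldn5 at 11.6, 11, 14 and 9.9 and Plvap, of leaky vessels, at 2.7, 3.09, 3.36 and 5.87. The sign of these 7 medians changed under another scaling or without a single library. Of 8 smooth muscle and pericyte genes tested of 12, 3 were higher and 1 lower (median 0.18, 0.08 and 0.15, and 0.07 with no filter or 0.017 after quantile normalization), Acta2 at 2.92, 2.76, 3.84 and 3.54 and Tagln at 3.37, 2.62, 2.92 and 3.16.

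Photoreceptor genes were mostly lower, though none was called. Of 20 rod genes 12 were lower and 1 higher without overlap, with a median of -0.34 (-0.49 in IOP 1 and -0.17 in IOP 2, and -0.22 without control 1). None had an unadjusted p of at most 0.05. The disc rim gene Rom1 was at 1138, 959, 744 and 764 FPKM. The arrestin gene Sag was higher, at 2236, 2195, 2488 and 3534. Of 11 cone genes tested of 12, 8 were lower and 1 higher, with a median of -0.57 (-0.20 and -0.92), and at an unadjusted p of at most 0.05 there were 4 lower and 1 higher (Gnb3). The cone arrestin gene Arr3 was at 226, 271, 167 and 92.1 FPKM (limma adjusted p = 0.235) and the short-wavelength opsin gene Opn1sw at 243, 387, 232 and 112. The medium-wavelength opsin gene Opn1mw was at 205, 203, 177 and 90. Gnb3, a transducin subunit of cones and bipolar cells, was higher, at 226, 289.9, 371 and 621. Cone opsins were lower in IOP 2 than in IOP 1, where Opn1sw was barely under the lower control. Of 11 photoreceptor transcription factors 4 were lower (median -0.15, -0.26 and -0.05, and -0.27 with median-of-ratios size factors or -0.02 without control 1), Nrl at 391, 312, 244 and 265 and Crx at 429, 347, 323 and 373, and of 14 ribbon synapse genes 5 were lower and 2 higher (median -0.19, -0.08 and -0.24, and -0.32 with voom or -0.07 without control 2).

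Ganglion cell identity genes gave no direction that both IOP libraries shared. Of 15 genes tested of 19, 2 were higher without overlap, Gap43 at 3.59, 5.69, 9.03 and 8.67 FPKM and Nefh at 3.22, 4.3, 5.7 and 7.74, the former a growth cone protein and the latter a neurofilament. The median was 0.62 in IOP 1 and -0.79 in IOP 2. Rbpms was at 1.05, 2.53, 2.84 and 1.55, Sncg at 5.98, 16.1, 18.9 and 3.85 and Slc17a6 at 0.541, 2.4, 2.52 and 0.25. None of 11 amacrine and horizontal cell genes tested of 18 was without overlap (0.73 and -1.56), and of 13 bipolar cell genes 1 was lower without overlap, Lrit3 at 28.4, 26.5, 19.8 and 21.6 (0.31 and -0.31). Of 16 axon injury genes the 11 tested were higher without overlap, 1 rose (Cd44), and the medians were alike, 1.02 in IOP 1 and 0.97 in IOP 2. The median over both was 0.92, and 1.40 with a mean of at least 2 FPKM. Sprr1a, a protein of regenerating axons, had 2 and 0 reads in the control and 52 and 235 in the IOP libraries, at least 37.0-fold higher. Sprr1a passed the level filter only through the IOP libraries. Atf3, a factor of injured neurons, was at 14.5, 11.9, 29.7 and 59.9 FPKM. Several of these genes are also made by glia and myeloid cells. Lens genes were higher too, and IOP 2, which was also higher in most glial rises, held more of them than IOP 1. Their part in the results was not tested. The 8 lens genes tested, of 19 listed, were without overlap (median 1.13, with 0.53 and 1.65, and 0.32 with no filter). The crystallin gene Crybb2 was at 1.14, 1.74, 2.33 and 7.74 FPKM and Cryaa at 0.773, 1.66, 1.83 and 7.81. The list summed to 48.8 and 40.5 FPKM in the control and 86.3 and 186 in the IOP libraries, mostly from Cryab, also a stress gene of Muller glia, while Crygd, Cryge and Crygf were at 0 in all 4. Pigment epithelium markers were without overlap in 1 of 8 genes tested of 16 (median -0.21, -0.09 and -0.46), and Rpe65 was under the filter. The signs of the ganglion cell, amacrine, bipolar, pigment epithelium and resting microglia medians changed without a single library.

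At 3 months the same treatment gave the same direction in every gene that rose at 18 months. All 23 were higher in both 3mo IOP libraries than in both 3mo controls, against 28.7% of all genes, and 12 were called there too, against 0.515%. The calls at both ages share 1 estimate of the spread, which favours genes whose 3mo libraries lay close together. These shares are therefore not independent of the choice of the 23 genes. Transcript length was covered unlike at the 2 ages, with the median FPKM of short over long transcripts at 1.20 to 1.36 at 18 months and 1.89 to 4.70 at 3 months. Both ends of the range at 3 months were controls, 3mo control 1 at 1.89 and 3mo control 2 at 4.70. Since the 3mo libraries share in the estimate of the spread, such differences can also enter the tests at 18 months. Their part in those tests and in the comparison of ages was not tested. No gene passed the test of the difference between the ages (limma interaction, smallest adjusted p 0.9999, with 212 genes at an unadjusted p of at most 0.05). The log2 difference was larger at 18 months in 16 of the 23 genes, which were chosen by their rise at 18 months, and in 5869, or 43.2%, of all genes. Among these 23 genes the largest gap in favour of 18 months was in C3, with 3.72 at 18 months and 1.26 at 3 months (interaction 2.46, unadjusted p = 0.00381 in limma). H2-Aa was at 2.39 against 0.47, with 1.25, 1.36, 2.71 and 1.46 FPKM in the 3mo libraries (interaction unadjusted p = 0.00139). The class II median was 2.30 at 18 months and 0.78 at 3 months, and 4 of the 6 genes had an unadjusted interaction p of at most 0.05. Interferon GTPases went the other way, with medians of 0.91 and 1.73, as did antiviral genes with 0.99 and 1.38. Differences between list medians at the 2 ages were not tested. In Serpina3n, Gfap and Pros1 the log2 differences were close at both ages, 4.18 and 4.35, 3.37 and 3.44, and 1.38 and 1.38. Immediate early genes had medians of 1.42 at 18 months and 0.53 at 3 months, and gp130 genes 1.19 and 0.16. Tagln and Acta2, the contractile genes of vessel walls, had the smallest interaction p-values. Acta2 was at 2.25, 1.67, 46 and 16.8 FPKM in the 3mo libraries, a log2 difference of 3.54 against 0.33 at 18 months (interaction -3.21, unadjusted p = 0.000411). Tagln was at 2.06, 2.29, 39.4 and 14.8, a log2 difference of 3.21 against 0.026. The glutathione transferase gene Gsta3 was at 4.28, 3.04, 17 and 13.3 FPKM at 3 months and 1.3, 1.19, 1.65 and 0.96 at 18 months. The Mylk-opposed transcript E130310I04Rik was at a log2 difference of -0.54 at 3 months. The transmembrane gene Tmem252 was higher at 18 months, at 0.631, 0.748, 2.39 and 3.02, while it was at 0, 0, 0.03 and 0.137 at 3 months. Blood genes, lower at 18 months, had a median of 0.27 at 3 months.

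**Figure D5:**
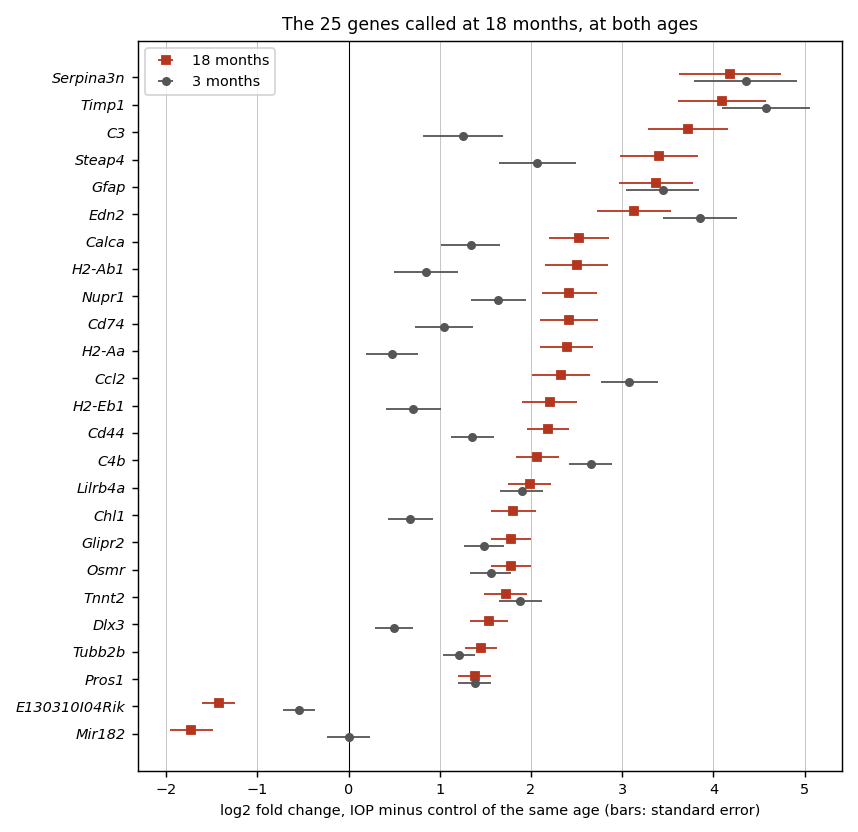
Log2 fold change of IOP against control at 18 months (red) and 3 months (grey) for the 25 genes called at 18 months, with standard errors. Among the genes that rose, C3 and the 4 class II genes have the widest gaps in favour of 18 months, and no difference between the ages passed the adjusted test.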

How the data were processed

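Poly(A) RNA of whole retinas was sequenced by the authors with a strand-specific kit. Reads were aligned to mm10 with STAR 2.7.8a, per the labels and the study's methods, and exon tags were counted with HOMER over 1 isoform per locus. The deposited values are FPKM, made by the authors from uniquely mapped tags. The authors' own tests used DESeq2, version 1.24.0 in the submitters' processing notes, and columns of such tests were not used. Short and long transcripts mean protein-coding ones under 1000 and of at least 4000 bases.

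From the FPKM, log2(FPKM + 0.5) was fitted with limma 3.58.1 (R 4.3.3, eBayes with trend) over the 8 single-elevation libraries as 4 groups of 2, which share 1 estimate of the spread. Fold changes are on this scale, which understates changes of low genes. Calls required both an adjusted p (Benjamini-Hochberg) no higher than 0.05 and a log2 change, up or down, of 1 or more. The interaction used the adjusted p alone. The script was tested on simulated data. Whole reads were recovered. Of the values above 0 with fewer than 2000 reads and a rounding error under 0.1 reads (9164 to 12438 a library), 100% came out whole within 0.02 reads beyond rounding, and a voom fit on the reads was an alternative. Other alternatives were pseudocounts of 0.1 and 1, 2 other scalings, other filters, the replicate number as a block, the libraries of 18mo animals alone and leaving out each library. Depth over the 8 libraries was 41526159 to 59455050 tags, and counts of reads carry counting error only.

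Named genes are the called ones, the largest differences without overlap at a mean of at least 2 FPKM, leading members of each list and the smallest interaction p-values. Further list members, among them those that did not move, were named after their values were seen. The members and lists were chosen with earlier results of these data known. The pathway lists were written after a picture of one of the study's figures on these data had been seen. A further list, of genes named by the study, had been read from that picture and was dropped, but most of its genes are also on the pathway lists, whose counts are therefore not independent of these data. The table of repeated elevations was not used here.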

Additional observations from a re-analysis of the deposited data

Results flagged for a closer look

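Over all 13583 genes, 48 were higher in both IOP libraries at 18 months and lower in both at 3 months, and 120 were the reverse. Of these, 4 are among the named or listed genes. Abca8a, a lipid transporter, had a log2 difference of 0.35 at 18 months and -0.18 at 3 months. Its levels were 54.6, 46.9, 76.8 and 54.6 FPKM at 18 months, in the order control 1, control 2, IOP 1 and IOP 2, so that control 1 and IOP 2 barely differed. Myh11, the smooth muscle myosin, had -0.38 and 2.14, with 0.968, 1.05, 0.917 and 0.442 FPKM at 18 months and 0.46, 0.15, 5.25 and 1.60 at 3 months. The unadjusted interaction p of Myh11 was 0.0040 (limma). Gm25500, a small gene within Taf1d on its strand, had -0.71 and 1.33 (unadjusted p = 0.00145, limma). Snord57, a small nucleolar RNA gene within Nop56 on its strand, had 0.34 and -1.84 (unadjusted p = 0.00239, limma). The limma adjusted interaction p was 0.9999 in all 4, so that none passed the test of the difference. With 2 libraries a group, no library could be tested as standing apart.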

How the results depend on the processing

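All 25 calls kept their direction in every alternative, which leaving out a library could not change in genes without overlap. The number of calls did not hold. Against 23 higher and 2 lower, limma called 0 and 0 genes with a pseudocount of 0.1 (1171 higher and 105 lower at an unadjusted p of at most 0.05), with median-of-ratios size factors (894 and 237), with voom on the recovered reads (912 and 250), and with the libraries of 18mo animals alone (1792 and 222). Quantile normalization called 1 higher (Nupr1) and 0 lower, no filter on low values 1 higher (Dlx3) and 0 lower, and a mean of at least 2 FPKM 21 higher and 1 lower. A pseudocount of 1 and eBayes without a trend each gave 25 and 2. Leaving out 1 library gave 0 to 169 higher and 0 to 10 lower. Without IOP 1 the 169 held 22 of the 23 genes, and without IOP 2 the 6 were Timp1, Steap4, Gfap, C3, Edn2 and Lcn2, with Mir182 lower. The interaction had 0 calls throughout except without a filter, where it had 2, Mir1247 and Snora62, named after their values were seen.

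The labels do not say whether replicate numbers pair the libraries. Deviations of same-numbered libraries had correlations of -0.529 at 18 months and -0.278 at 3 months, which does not settle it, and no pairing was used. With the replicate number as a block there were 0 higher and 0 lower (915 and 79 unadjusted). A crossed pairing, added after seeing the data, gave 330 higher and 12 lower. With 2 libraries a group the spread is estimated poorly, and genes near the floor of 3 reads carry no reliable fold.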
